A study of Mus musculus with 6 samples.

Results

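The mitotic spindle and kinetochore genes were a list of 55 genes chosen by name, with earlier results of these data known. Their levels were compared in lung tumors grown with and without earlier lung injury. All 55 were found by symbol among the 31130 genes of the count tables. The data were RNA counts from 3 tumors of the LC model (lung cancer alone) and 3 tumors of the IP+LC model (lung cancer with interstitial pneumonia). All mice were wild-type females, 6 to 8 weeks old. The paper transplanted Lewis lung carcinoma (LLC) cells, 1 mouse lung cancer line, into C57BL/6 mice and another line into B6D2F1/Crl mice. Its account of the sequencing names neither the line nor the strain of these tumors. All mice received lung cancer cells in the left lung on day 14, and tumor tissue was taken on day 21. On day 0, IP+LC mice were given bleomycin, which damages lung tissue and causes fibrosis, at 2.0 mg/kg by oropharyngeal aspiration, and LC mice were given saline. The labels call the cells lung cancer cells, but the tissue also held cells of the host lung. The airway gene Scgb1a1 and the type 2 alveolar gene Sftpc had mean levels of 41458 and 27466 CPM (counts per 1000000 UMIs) in the LC group and 4454 and 6347 CPM in the IP+LC group. In such tissue, fewer cells of a type and less RNA per cell cannot be told apart. Nothing in the labels ties each tumor to a mouse of its own, so the p-values measure the spread between these tumors.

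The kinetochore is the protein assembly that forms on the centromere of each chromosome and holds the ends of spindle microtubules. The spindle checkpoint delays the separation of the chromosomes until every kinetochore is attached, after which the anaphase-promoting complex marks cyclin B and securin for destruction. Motor proteins of the kinesin family and microtubule-binding proteins build the spindle, and the central spindle then guides the cleavage of the cell. Most of these genes are transcribed late in the cell cycle, in dividing cells, and their transcripts are widely used as a measure of proliferation in tumors.

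The 3 LC libraries held 592733, 1379759 and 1356381 UMIs and the 3 IP+LC libraries held 1344042, 1631066 and 1336919 UMIs. A UMI (unique molecular identifier) counts 1 captured RNA molecule, and levels are given in CPM after TMM scaling. The smallest library, LC replicate 1, also stood apart from the other LC tumors, and it is shown apart from them below. The spread between tumors (the biological coefficient of variation of edgeR) was 34.4% in the LC group, 13.7% in the LC group without replicate 1 and 11.0% in the IP+LC group. Markers of lung cells differed between the groups as well. The summed level of 8 airway epithelium markers was 49836 to 58702 CPM in the LC tumors and 3433 to 7337 CPM in the IP+LC tumors. The summed level of 8 endothelial markers was 1438 to 2388 CPM in the LC tumors and 403 to 526 CPM in the IP+LC tumors. All 8 markers of either list fell, and each had at least 1 UMI in the data. All 8 markers of type 2 alveolar cells and 7 of 8 of type 1 alveolar cells fell as well. The part of these cells in the differences below was not tested.

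The 55 genes together were higher in the IP+LC tumors. Their UMIs made up 0.257%, 0.0718% and 0.0652% of all UMIs in LC replicates 1, 2 and 3. The same share was 0.433%, 0.430% and 0.382% in the IP+LC tumors. The share in LC replicate 1 lay between those of the other LC tumors and those of the IP+LC tumors. On the CPM scale, the LC tumors had a mean summed level of 1384 ± 1076 and the IP+LC tumors one of 4009 ± 268 (SD, n = 3 each), a ratio of 2.90. LC replicate 1 had 2626 CPM, against 776 and 750 CPM in LC replicates 2 and 3. The mean of the IP+LC tumors was therefore 5.25 times that of LC replicates 2 and 3 but 1.53 times that of LC replicate 1.

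Gene by gene, 40 of the 54 genes that could be tested rose in the IP+LC group, 1 fell and 13 did not pass the limit (edgeR's quasi-likelihood test, adjusted p below 0.1 over 11240 genes). Among all genes tested, 16.8% rose and 19.6% fell. All 3 IP+LC tumors lay above all 3 LC tumors for 37 of the genes, and this was so for 21.6% of all genes tested. The median log2 fold change of the 54 genes was 1.74, against 0.02 for all genes tested, and 17 genes rose by at least 4-fold. When LC replicate 1 was left out, 53 of the 54 genes rose and 1 fell, the median log2 fold change was 2.45, and 28.3% of all genes tested rose. When any other tumor was left out, fewer genes rose. The number was 23 without LC replicate 2 (8.81% of all genes tested rose) and 26 without LC replicate 3 (11.2%). It was 25 when either IP+LC replicate 1 (9.25%) or replicate 2 (7.61%) was left out, and 30 when IP+LC replicate 3 (11.1%) was. A set of 23 genes rose with all tumors and without each tumor in turn, and Cenpe, Cenpf, Top2a, Mki67, Ndc80 and Kif20b were among them. The other 17 genes that rose lost the call when at least 1 tumor other than LC replicate 1 was left out, and they are named below. In the 17 alternative settings, no gene that could be tested changed its sign.

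**Figure D1:**
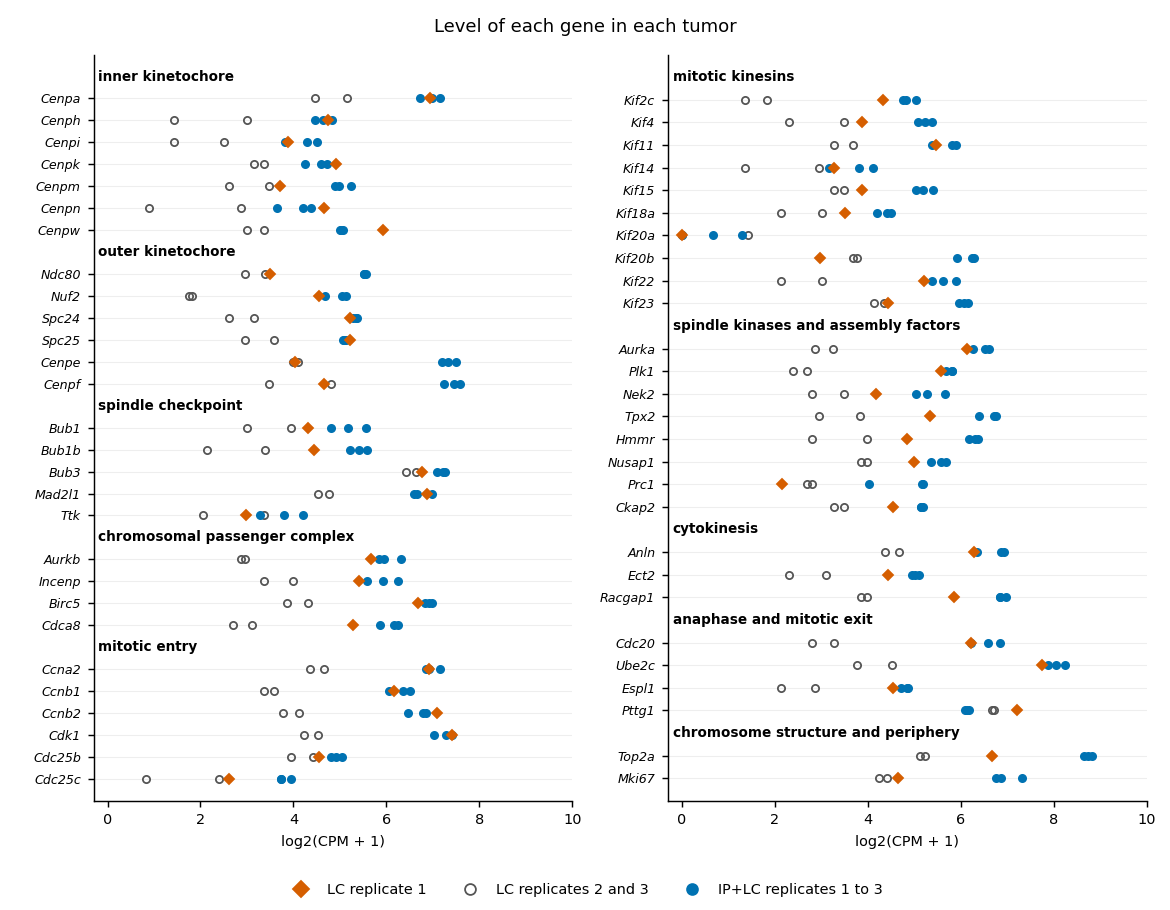
Level of each gene in each tumor on a log2(CPM + 1) axis, grouped by role. Filled circles are IP+LC tumors, open circles LC replicates 2 and 3, and diamonds LC replicate 1, which lies among the IP+LC tumors for Cdk1 and Cenpa and among the other LC tumors for Cenpe.

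**Figure D2:**
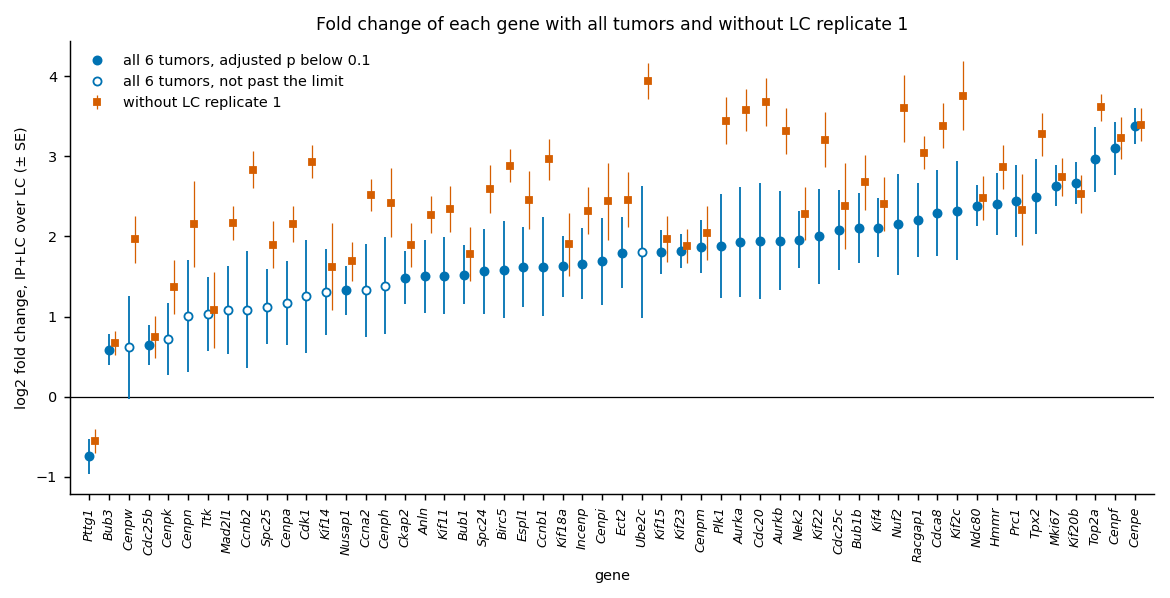
Log2 fold change of the 54 tested genes, IP+LC over LC, with its standard error, in the order of the fold change with all 6 tumors. Circles are the fit with all tumors (filled where the adjusted p is below 0.1) and squares the fit without LC replicate 1, in which 53 of the 54 genes lie above 0.

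The outer kinetochore, which grips the microtubule, held Cenpe and Cenpf, whose fold changes were the highest of the 54 genes with all tumors. Cenpe encodes a motor protein of the kinetochore that carries chromosomes to the middle of the spindle. Its level was 15.5, 14.9 and 16.1 CPM in LC replicates 1, 2 and 3 and 180, 159 and 147 CPM in IP+LC replicates 1, 2 and 3. The groups did not overlap, LC replicate 1 was no higher than its group, and the log2 fold change was 3.38 (SE 0.22, adjusted p = 0.000354). Cenpf, a large protein of the outermost layer, had 24.1, 10.2 and 27.1 CPM in the LC tumors and 150, 174 and 190 CPM in the IP+LC tumors. Its log2 fold change was 3.10 (SE 0.33, adjusted p = 0.000859), and again LC replicate 1 lay within the range of the other LC tumors. The NDC80 complex, the main microtubule coupler, consists of the products of Ndc80, Nuf2, Spc24 and Spc25. Ndc80 was measured at 10.3, 9.40 and 6.78 CPM in the LC tumors and at 45.0, 46.1 and 45.0 CPM in the IP+LC tumors, with a log2 fold change of 2.38 (SE 0.25, adjusted p = 0.000859). The other 3 subunits did not share its pattern within the LC group. Nuf2, for example, had 22.4 CPM in LC replicate 1 but 2.35 and 2.54 CPM, or 3 UMIs each, in LC replicates 2 and 3, and 31.9, 33.9 and 24.7 CPM in the IP+LC tumors. The log2 fold changes were 2.15 for Nuf2 (SE 0.63, adjusted p = 0.0334) and 1.56 for Spc24 (SE 0.53, adjusted p = 0.057). Spc25 did not pass the limit, with a log2 fold change of 1.12 (SE 0.47, adjusted p = 0.108), and LC replicate 1 at 36.2 CPM was above all 3 IP+LC tumors (32.6 to 34.1 CPM). Without LC replicate 1, all 4 subunits rose, by 2.48 (Ndc80), 3.60 (Nuf2), 2.59 (Spc24) and 1.90 (Spc25) on the log2 scale, and all 6 outer kinetochore genes passed the limit. Spc24 lost the call without any 1 of the other 5 tumors (adjusted p = 0.139 to 0.233), and Nuf2 without LC replicate 2 or 3 or IP+LC replicate 1 or 2 (adjusted p = 0.107 to 0.152). Both also lost it after thinning to equal depth (adjusted p = 0.185 and 0.180).

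For the inner kinetochore genes, which mark the centromere and anchor the rest, LC replicate 1 was mostly at the level of the IP+LC tumors. Of 7 genes, 2 rose (Cenpm and Cenpi), none fell and 5 did not pass the limit. Cenpa encodes the histone variant that defines the centromere. Its level was 122, 34.5 and 21.2 CPM in LC replicates 1, 2 and 3 and 141, 126 and 105 CPM in the IP+LC tumors. LC replicate 1 was thus within the range of the IP+LC tumors, and the log2 fold change of 1.17 (SE 0.53) had an adjusted p of 0.132. Cenpw, a histone-fold protein of the same layer, had 60.3, 7.05 and 9.32 CPM in the LC tumors and 32.6, 31.5 and 31.2 CPM in the IP+LC tumors. Here LC replicate 1 was the highest of the 6 tumors, and the log2 fold change was 0.61 (SE 0.64, adjusted p = 0.509). Cenpm, a subunit of the constitutive centromere network, was the only gene of the 7 for which LC replicate 1 lay below every IP+LC tumor, with 12.1, 10.2 and 5.08 CPM in the LC tumors and 37.0, 28.6 and 30.5 CPM in the IP+LC tumors (log2 fold change 1.87, SE 0.33, adjusted p = 0.00452). The log2 fold change of Cenpi was 1.69 (SE 0.54, adjusted p = 0.047). It was 1.38 for Cenph, 1.00 for Cenpn and 0.72 for Cenpk, with adjusted p values of 0.123, 0.317 and 0.269. Without LC replicate 1, all 7 genes rose, with a median log2 fold change of 2.15, and Cenpi, Cenph, Cenpn and Cenpk had 2.44, 2.42, 2.15 and 1.37. Cenpi lost the call without LC replicate 2 or 3 or IP+LC replicate 1 or 2 (adjusted p = 0.151 to 0.184). The summed level of the 7 genes in LC replicate 1 was 4.54 times that of LC replicates 2 and 3 and 1.07 times that of the IP+LC tumors. For the outer kinetochore genes, the level of LC replicate 1 was 0.300 times that of the IP+LC tumors. Cenpe and Cenpf, with means of 162 and 171 CPM in the IP+LC tumors, made up most of that sum. For Nuf2, Spc24 and Spc25, LC replicate 1 had 22.4, 36.2 and 36.2 CPM against IP+LC means of 30.1, 39.3 and 33.3 CPM. For Ndc80, it had 10.3 CPM against a mean of 45.4 CPM.

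Of the 5 spindle checkpoint genes, 3 rose. Bub1b encodes BubR1, a subunit of the complex that blocks the anaphase-promoting complex. It was measured at 20.7, 9.40 and 3.39 CPM in the LC tumors and at 41.3, 46.7 and 36.3 CPM in the IP+LC tumors, without overlap (log2 fold change 2.10, SE 0.43, adjusted p = 0.00858). The kinase gene Bub1 had 18.9 CPM in LC replicate 1, 7.05 and 14.4 CPM in LC replicates 2 and 3 and 26.8 to 46.1 CPM in the IP+LC tumors (log2 fold change 1.52, SE 0.37, adjusted p = 0.016). After thinning to equal depth, Bub1 lost the call (log2 fold change 1.05, adjusted p = 0.126). Bub3, whose product also serves outside the checkpoint, had the smallest increase of all genes that rose. Its level was 108, 84.6 and 99.1 CPM in the LC tumors and 149, 136 and 152 CPM in the IP+LC tumors, and the log2 fold change was 0.58 (SE 0.19, adjusted p = 0.0512). Bub3 lost the call without any 1 of the 5 tumors other than LC replicate 1 (adjusted p = 0.104 to 0.190) and after thinning (0.337). Mad2l1, which encodes the checkpoint protein Mad2, had 117 CPM in LC replicate 1, 21.9 and 26.3 CPM in LC replicates 2 and 3, and 94.99, 126 and 99.5 CPM in the IP+LC tumors. The first of these values lay within the IP+LC range, and the log2 fold change was 1.08 (SE 0.54, adjusted p = 0.172). Ttk, the kinase Mps1, rested on 4 to 24 UMIs per tumor and overlapped between the groups (log2 fold change 1.03, SE 0.46, adjusted p = 0.128). All 5 genes rose without LC replicate 1, with a median log2 fold change of 1.78.

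All 4 genes of the chromosomal passenger complex rose, and no IP+LC tumor overlapped with an LC tumor. This complex corrects wrong attachments and later directs cleavage. Aurkb, its kinase, had 49.9, 6.27 and 6.78 CPM in the LC tumors and 78.3, 60.7 and 56.6 CPM in the IP+LC tumors, and the log2 fold change was 1.94 (SE 0.62, adjusted p = 0.0449). Birc5, the gene of survivin, had 102, 18.8 and 13.6 CPM in the LC tumors and 125, 120 and 113 CPM in the IP+LC tumors. LC replicate 1 thus came close to the IP+LC tumors, and the log2 fold change of 1.58 had a large standard error (0.61, adjusted p = 0.0835). The scaffold gene Incenp had a log2 fold change of 1.66 (SE 0.44, adjusted p = 0.024) and Cdca8, the gene of borealin, one of 2.29 (SE 0.54, adjusted p = 0.0144). The values without LC replicate 1 were 3.31 for Aurkb, 2.88 for Birc5, 2.32 for Incenp and 3.38 for Cdca8. When any 1 of the other 5 tumors was left out, Aurkb (adjusted p = 0.103 to 0.190) and Birc5 (adjusted p = 0.171 to 0.275) lost the call. Both lost it after thinning to equal depth as well (adjusted p = 0.115 each). Birc5 also lost it under upper quartile scaling (adjusted p = 0.101), and Incenp lost it without LC replicate 2 (adjusted p = 0.123).

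Among the 10 mitotic kinesins, 8 rose, Kif14 did not pass the limit and Kif20a could not be tested. Kif20b, which acts in cytokinesis, was measured at 6.89, 11.8 and 12.7 CPM in the LC tumors and at 59.5, 76.5 and 74.8 CPM in the IP+LC tumors. Its log2 fold change was 2.66 (SE 0.26, adjusted p = 0.000821). LC replicate 1 was the lowest of the 6 tumors, but on 4 UMIs, so its order among the LC tumors is uncertain. Kif23, the motor of the centralspindlin complex, had 20.7, 16.5 and 19.5 CPM in the LC tumors and 66.0, 70.0 and 61.0 CPM in the IP+LC tumors (log2 fold change 1.82, SE 0.21, adjusted p = 0.00113). For this gene, the 3 LC tumors were nearly alike. Kif11, the motor Eg5 that pushes the spindle poles apart, had 43.1, 8.62 and 11.9 CPM in the LC tumors and 58.7, 54.9 and 40.7 CPM in the IP+LC tumors. LC replicate 1 was above IP+LC replicate 3, and the log2 fold change was 1.51 (SE 0.48, adjusted p = 0.0446). Kif2c, the microtubule depolymerase MCAK, rested on 2 and 3 UMIs in LC replicates 2 and 3, on 11 UMIs in LC replicate 1 and on 36 to 47 UMIs in the IP+LC tumors (log2 fold change 2.32, SE 0.62, adjusted p = 0.0241). The other log2 fold changes were 2.11 for the chromokinesin Kif4 (adjusted p = 0.0043) and 2.001 for the chromokinesin Kif22 (adjusted p = 0.0343). They were 1.81 for Kif15 (adjusted p = 0.00241) and 1.63 for Kif18a (adjusted p = 0.014), which limits the movements of chromosomes. When LC replicate 1 was left out, these were 2.40 for Kif4, 3.21 for Kif22, 1.96 for Kif15 and 1.90 for Kif18a. Kif11 (adjusted p = 0.142 to 0.190) and Kif22 (adjusted p = 0.101 to 0.165) lost the call without LC replicate 2 or 3 or IP+LC replicate 1 or 2, and Kif2c lost it without LC replicate 2 (adjusted p = 0.111). Kif11 lost it after thinning too (adjusted p = 0.176). Kif14, a kinesin of cytokinesis, had 5, 2 and 8 UMIs in the LC tumors and 18, 28 and 11 UMIs in the IP+LC tumors. Its log2 fold change was 1.31 (SE 0.53, adjusted p = 0.10024). Kif20a, also a cytokinesis kinesin, had 0 to 2 UMIs in every tumor, which is below the limit of 3 UMIs. The last 500 bases of its annotated transcript, where reads of this method fall, overlap Cdc23 on the other strand along 100% of their length, and Cdc23 itself had 4 to 8 UMIs per tumor.

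All 8 spindle kinases and assembly factors rose, and for all 8 the groups did not overlap. Aurka, the kinase of the spindle poles, had 68.9, 6.27 and 8.47 CPM in the LC tumors and 90.6, 96.9 and 75.5 CPM in the IP+LC tumors (log2 fold change 1.93, SE 0.69, adjusted p = 0.066). Its activator Tpx2 was measured at 39.6, 13.3 and 6.78 CPM in the LC tumors and at 104, 107 and 83.5 CPM in the IP+LC tumors (log2 fold change 2.50, SE 0.47, adjusted p = 0.00592). LC replicate 1 was close to the IP+LC tumors for the kinase and farther below them for the activator. Plk1, a kinase that acts from mitotic entry to cytokinesis, had a log2 fold change of 1.88 (SE 0.65, adjusted p = 0.06), with 46.5 CPM in LC replicate 1 and 5.48 and 4.24 CPM in LC replicates 2 and 3. The centrosome kinase Nek2 had a log2 fold change of 1.96 (SE 0.36, adjusted p = 0.00514). Among the microtubule-binding factors, the log2 fold change was 2.40 for Hmmr (adjusted p = 0.00322), 1.33 for Nusap1 (adjusted p = 0.0137) and 1.49 for Ckap2 (adjusted p = 0.0116). The log2 fold changes without LC replicate 1 were 3.58 for Aurka, 3.44 for Plk1, 3.27 for Tpx2, 2.28 for Nek2, 2.87 for Hmmr, 1.69 for Nusap1 and 1.89 for Ckap2. Aurka (adjusted p = 0.137 to 0.222) and Plk1 (adjusted p = 0.143 to 0.244) lost the call without any 1 of the other 5 tumors, and both lost it after thinning to equal depth (adjusted p = 0.108 and 0.251). Prc1, which bundles the central spindle, rested on 2, 7 and 7 UMIs in the LC tumors and on 21, 61 and 48 UMIs in the IP+LC tumors (log2 fold change 2.44, SE 0.45, adjusted p = 0.00535). Its last 500 bases overlap Rccd1 along 100% of their length, and Rccd1 had 5.17 to 7.05 CPM in the LC tumors and 3.63 to 6.54 CPM in the IP+LC tumors.

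The 3 cytokinesis genes rose together. Racgap1, the partner of Kif23 in centralspindlin, had 56.8, 14.9 and 13.6 CPM in the LC tumors and 124, 114 and 114 CPM in the IP+LC tumors (log2 fold change 2.21, SE 0.46, adjusted p = 0.00893). LC replicate 1 lay between the other LC tumors and the IP+LC tumors. Ect2, the exchange factor that switches on RhoA at the cell equator, had a log2 fold change of 1.80 (SE 0.44, adjusted p = 0.0178). For Anln, a scaffold of the contractile ring, it was 1.502 (SE 0.45, adjusted p = 0.0379). In LC replicate 1, Ect2 had 20.7 CPM and Anln 77.5 CPM, and without this tumor their log2 fold changes were 2.46 and 2.27. Ect2 lost the call after thinning to equal depth (adjusted p = 0.102). Anln lost the call without LC replicate 2 or 3 or IP+LC replicate 1 or 2 (adjusted p = 0.122 to 0.150).

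Of the 6 genes of mitotic entry, 3 rose and 3 did not pass the limit, and LC replicate 1 stood at the level of the IP+LC tumors for the cyclins and their kinase. Cdk1, the kinase that starts mitosis, had 169, 21.9 and 17.8 CPM in LC replicates 1, 2 and 3 and 170, 155 and 130 CPM in IP+LC replicates 1, 2 and 3. Its log2 fold change was 1.25 (SE 0.71, adjusted p = 0.221) with all tumors and 2.93 (SE 0.21) without LC replicate 1. Ccnb2, a B-type cyclin that activates it, had 136, 16.5 and 12.7 CPM in the LC tumors and 115, 110 and 87.1 CPM in the IP+LC tumors. LC replicate 1 was the highest of the 6 tumors, and the log2 fold change was 1.09 (SE 0.73, adjusted p = 0.298). Ccna2, cyclin A2, had 121, 24.3 and 19.5 CPM in the LC tumors and 142, 115 and 120 CPM in the IP+LC tumors. Its log2 fold change was 1.33 (SE 0.58, adjusted p = 0.12), and 2.52 without LC replicate 1. Ccnb1, cyclin B1, had 70.6, 11.0 and 9.32 CPM in the LC tumors and 66.0, 89.9 and 81.3 CPM in the IP+LC tumors. It passed the limit with an overlap between the groups (log2 fold change 1.62, SE 0.62, adjusted p = 0.082). Near-identical copies in 4 other genes cover 51.95% of its transcript, so its value is uncertain, although the copy Gm12856 had at most 5 UMIs in a tumor. The phosphatase genes that activate Cdk1 behaved otherwise. Cdc25b had 22.4, 20.4 and 14.4 CPM in the LC tumors and 31.9, 26.9 and 29.1 CPM in the IP+LC tumors, a log2 fold change of 0.65 (SE 0.25, adjusted p = 0.0884). Cdc25c rested on 3, 1 and 5 UMIs in the LC tumors and on 17, 21 and 20 UMIs in the IP+LC tumors (log2 fold change 2.08, SE 0.50, adjusted p = 0.0156), and it shares 23.65% of its transcript with Gm3550, which overlaps it on the other strand and had 33 to 102 UMIs per tumor. Ccnb1 (adjusted p = 0.160 to 0.285) and Cdc25b (adjusted p = 0.157 to 0.265) lost the call without any 1 of the 5 tumors other than LC replicate 1. Ccnb1 lost it after thinning too (adjusted p = 0.170). Cdc25b also lost it under upper quartile scaling (adjusted p = 0.127), with the DESeq2 test (0.251), without a filter on low counts (0.103) and after thinning (0.828), where its log2 fold change was 0.12.

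The 4 genes of anaphase and mitotic exit included the only gene that fell. Pttg1 encodes securin, the inhibitor of separase. Its level was 148, 104 and 101 CPM in LC replicates 1, 2 and 3 and 69.6, 67.1 and 71.9 CPM in the IP+LC tumors. All IP+LC tumors were below all LC tumors, and Pttg1 fell by 0.74 on the log2 scale (SE 0.21, adjusted p = 0.0321) and by 0.55 without LC replicate 1 (SE 0.15). The call of Pttg1 was lost when any of IP+LC replicates 1, 2 or 3 was left out, and none of the 54 genes then passed the limit in this direction. Of all genes tested, 13.4%, 11.6% and 15.5% fell in these fits. Espl1, the gene of separase itself, rose, with 22.4, 6.27 and 3.39 CPM in the LC tumors and 25.4, 28.0 and 27.6 CPM in the IP+LC tumors (log2 fold change 1.62, SE 0.50, adjusted p = 0.041). Cdc20, the activator of the anaphase-promoting complex, had 74.1, 8.62 and 5.93 CPM in the LC tumors and 114, 95.1 and 73.3 CPM in the IP+LC tumors. It rose, with LC replicate 1 just above IP+LC replicate 3 (log2 fold change 1.94, SE 0.72, adjusted p = 0.0754). Ube2c, the ubiquitin-conjugating enzyme of that complex, had 214, 21.9 and 12.7 CPM in the LC tumors and 300.2, 265 and 235 CPM in the IP+LC tumors. The groups did not overlap, but LC replicate 1 was far above the other LC tumors, and the log2 fold change of 1.80 (SE 0.83) had an adjusted p of 0.138. Without LC replicate 1, it was 3.94 (SE 0.23), the highest of the 54 genes. Espl1 (adjusted p = 0.108 to 0.181) and Cdc20 (adjusted p = 0.139 to 0.262) lost the call without any 1 of the other 5 tumors, and both lost it after thinning (adjusted p = 0.116 and 0.133).

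The remaining genes act on chromosome structure. Top2a, the topoisomerase that untangles sister chromatids, had 102, 33.7 and 36.4 CPM in the LC tumors and 453, 423 and 401 CPM in the IP+LC tumors. Its log2 fold change was 2.96 (SE 0.40, adjusted p = 0.0016). Mki67 encodes Ki-67, a coat of mitotic chromosomes used in pathology to count dividing cells. It was measured at 24.1, 18.0 and 20.3 CPM in the LC tumors and at 159, 116 and 107 CPM in the IP+LC tumors (log2 fold change 2.63, SE 0.25, adjusted p = 0.000821). LC replicate 1 differed little from the other LC tumors for Mki67, whereas its Top2a level lay between theirs and those of the IP+LC tumors.

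The place of LC replicate 1 therefore differed from gene to gene. Of the 53 genes that rose when it was left out of the fit, 15 had a level in LC replicate 1 at or above that of at least 1 IP+LC tumor. These were Cdk1, Ccna2, Ccnb1, Ccnb2, Cenpa, Cenph, Cenpi, Cenpk, Cenpn, Cenpw, Spc25, Mad2l1, Kif11, Kif14 and Cdc20. For 33 genes, it lay between the other LC tumors and the IP+LC tumors, and for 5 (Cenpe, Cenpf, Kif20b, Prc1 and Ttk) it was at or below LC replicate 2 or 3. The shares were 28.3%, 62.3% and 9.43%. Among all 3269 tested genes that rose without LC replicate 1, the same places held 35.1%, 34.6% and 30.3%.

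The length of the transcripts moved with this place. The median length was 1793 bases for the 15 genes, 3052 bases for the 33 genes and 5564 bases for the 5 genes. Over the 54 tested genes, Spearman's rho between transcript length and the difference of IP+LC from LC replicate 1 was 0.54, as a description across genes that share the same libraries. Over all 11240 genes tested it was 0.36. For the difference of IP+LC from LC replicates 2 and 3, it was 0.09 over the 54 genes and -0.03 over all genes. After trends with length and GC content were removed from every library, rho of the 54 genes with the difference from LC replicate 1 was 0.20, and the 3 places held 16, 34 and 3 genes. Cenpe, Cenpf and Kif20b then had LC replicate 1 between the other LC tumors and the IP+LC tumors, as did Cdc20. Among the 3269 tested genes that rose without LC replicate 1, the same places then held 34.9%, 37.9% and 27.2%. On that scale, LC replicate 1 thus lay above LC replicates 2 and 3 for 50 of the 53 genes, and also for most of the 3269 genes. In the fit after this removal, 44 genes rose (19.4% of all genes tested). The part of RNA quality or library size in the relation with length was not tested.

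**Figure D3:**
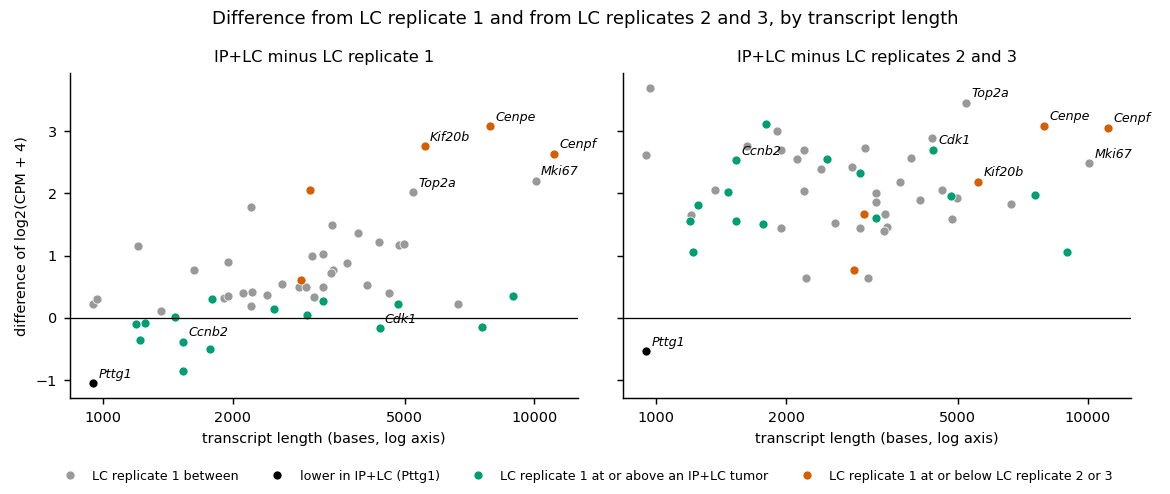
Difference of the mean log2(CPM + 4) of the IP+LC tumors from LC replicate 1 (left) and from LC replicates 2 and 3 (right) against transcript length on a log axis, 1 point per tested gene. Cenpe and Cenpf lie high on the left (Spearman's rho 0.54 over all 54 genes), while other long transcripts lie low (Mad2l1 -0.14, Espl1 0.23, Kif14 0.35), and rho is 0.09 on the right.

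The promoters of these genes share sequence elements that were not used to choose them. Genes of the late cell cycle are known for the cell cycle genes homology region (CHR), which is bound by the DREAM and MuvB complexes, and for CCAAT boxes, which are bound by NF-Y. Both were searched on both strands of RefSeq promoter windows of GRCm38.p6, from 250 bases before to 50 bases after each RefSeq start, which can differ from the start in GENCODE. The CHR was searched as TTTGAA or TTCGAA within 50 bases of the start, and the CCAAT box as CCAAT. Windows were present for 48 of the 55 genes. A CHR match near the start was found in 62.3% of their 53 windows and in 5.31% of the 32851 windows of all genes. A CCAAT box was found in 79.2% against 37.4%, at least 2 CCAAT boxes in 45.3% against 11.7%, and both elements in 54.7% against 2.24%.

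**Figure D4:**
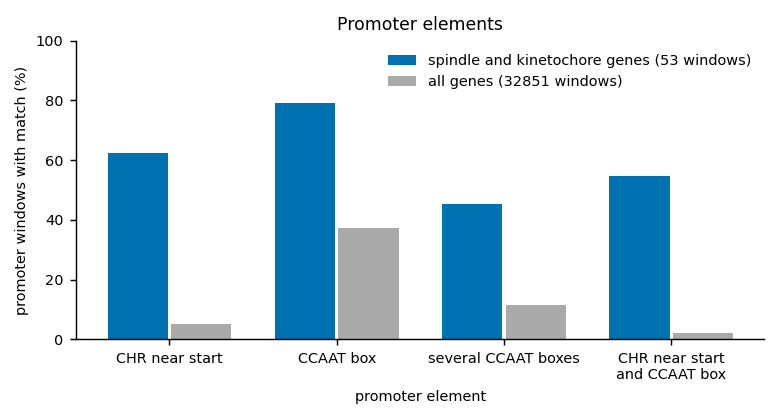
Share of promoter windows with a match, in percent, for the spindle and kinetochore genes (53 windows) and for all genes (32851 windows). A CHR near the start and a CCAAT box together are found in 54.7% against 2.24% of the windows.

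The 120 bases before the RefSeq start are shown for 5 genes as examples. In the levels as counted, LC replicate 1 reached the IP+LC tumors for Cdk1 and Cdc20 and lay between for Ube2c and Top2a. For Cenpe, it lay at the level of its group. After the removal of length and GC trends, it lay between for Cdc20 and Cenpe as well. Each is read 5′ to 3′ along the strand of the gene, and capitals mark the letters of the CHR and of the CCAAT box in either orientation.
Cdk1, chr10:69352913-69353032, minus strand: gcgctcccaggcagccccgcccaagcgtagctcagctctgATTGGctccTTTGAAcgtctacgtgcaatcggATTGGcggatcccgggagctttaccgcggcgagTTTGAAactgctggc
Cdc20, chr4:118437344-118437463, minus strand: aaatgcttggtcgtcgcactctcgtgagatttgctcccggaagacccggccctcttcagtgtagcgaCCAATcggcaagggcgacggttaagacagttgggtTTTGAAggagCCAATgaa
Ube2c, chr2:164769809-164769928, plus strand: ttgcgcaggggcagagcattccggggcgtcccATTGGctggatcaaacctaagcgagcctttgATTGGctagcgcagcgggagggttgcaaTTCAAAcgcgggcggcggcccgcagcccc
Top2a, chr11:99024190-99024309, minus strand: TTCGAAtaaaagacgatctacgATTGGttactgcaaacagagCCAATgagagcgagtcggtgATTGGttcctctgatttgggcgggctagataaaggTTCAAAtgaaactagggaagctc
Cenpe, chr3:135212443-135212562, plus strand: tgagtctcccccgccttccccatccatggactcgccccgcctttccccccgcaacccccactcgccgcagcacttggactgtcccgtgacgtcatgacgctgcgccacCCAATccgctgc
The stretches of Cdk1, Cdc20, Ube2c and Top2a hold both elements, and that of Cenpe a CCAAT box without a CHR. These examples do not tie the CHR to the place of LC replicate 1. Cenpf, Kif20b, Prc1 and Ttk, which shared the place of Cenpe as counted, have a CHR near the start. Of the genes that shared the place of Cdk1, some have it and Ccnb1, Cenph, Cenpi, Cenpk, Mad2l1 and Kif14 do not. A match is a match of letters only.

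The genes that work beside the 55 genes are given by list, and their counts are to be read against the 16.8% of all genes tested that rose and the 19.6% that fell, or the 28.3% and 28.7% without LC replicate 1. Of 26 other kinetochore and centromere genes tested, 15 rose and none fell, with a median log2 fold change of 1.01. Knl1, the scaffold that recruits the checkpoint proteins, had 5.17, 5.48 and 11.0 CPM in the LC tumors and 41.3, 53.7 and 46.5 CPM in the IP+LC tumors (log2 fold change 2.64, SE 0.31, adjusted p = 0.00117). Of 26 other spindle and cytokinesis genes, 18 rose and none fell, with a median of 1.46, and the spindle pole gene Aspm had a log2 fold change of 2.40 (SE 0.35, adjusted p = 0.00216). Of 19 condensin and cohesin genes, 10 rose and none fell. The condensin gene Smc2 had 18.9, 25.9 and 43.2 CPM in the LC tumors and 174, 187 and 152 CPM in the IP+LC tumors, with LC replicate 1 as the lowest tumor (log2 fold change 2.50, SE 0.29, adjusted p = 0.00111). Without LC replicate 1, 22 of the 26 kinetochore genes, 19 of the 26 spindle genes and 14 of the 19 condensin and cohesin genes rose, and 1 gene of these lists fell, the cohesin gene Stag2 (log2 fold change -0.43, SE 0.16, adjusted p = 0.039), which is named after its value was seen.

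Of 15 tested genes of the anaphase-promoting complex and its partners, 3 rose and 2 fell, against 16.8% and 19.6% of all genes tested, and the median log2 fold change was 0.05. The genes that rose were Ube2s, its second conjugating enzyme (log2 fold change 2.01, SE 0.45, adjusted p = 0.0124), Fbxo5, its inhibitor Emi1 (2.07, SE 0.49, adjusted p = 0.0149), and the subunit gene Anapc1 (0.48, SE 0.18, adjusted p = 0.0843), which is named after its value was seen. The subunit genes Anapc13 (-0.83, SE 0.20, adjusted p = 0.0159) and Anapc10 (-0.59, SE 0.23, adjusted p = 0.0835) fell. Of 15 genes of the DREAM, MuvB, FOXM1 and NF-Y regulators, 5 rose and 2 fell, against the same shares of all genes. Tfdp1, a partner of the E2F factors, had a log2 fold change of 1.38 (SE 0.25, adjusted p = 0.00497), and Lin52, a subunit of MuvB, one of -1.40 (SE 0.37, adjusted p = 0.0225). Of 11 genes that brake or speed the mitotic kinases, 5 rose and 1 fell. Wee1, the kinase that inhibits Cdk1, was among those that rose, with a log2 fold change of 1.39 (SE 0.36, adjusted p = 0.0219). Of 6 CDK inhibitor genes, none rose and 3 fell, led by Cdkn1c (p57) with 20.7, 60.3 and 65.3 CPM in the LC tumors and 5.80, 7.59 and 18.2 CPM in the IP+LC tumors (log2 fold change -2.29, SE 0.48, adjusted p = 0.0092). When LC replicate 1 was left out, 1 of the 6 rose, Cdkn1a (p21), with a log2 fold change of 0.47 (SE 0.17, adjusted p = 0.0271), and 4 fell. In the same fit, 4 genes of the anaphase-promoting complex list rose and 2 fell, 7 of the DREAM list rose and 2 fell, and 7 of the kinase list rose and 1 fell.

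DNA replication genes, which serve the phase before mitosis, were also higher in the IP+LC tumors. Of 23 tested, 18 rose and none fell, and all 23 rose without LC replicate 1. Their summed level was 1309, 440 and 376 CPM in LC replicates 1, 2 and 3 and 1792, 1748 and 1621 CPM in the IP+LC tumors. LC replicate 1 again lay between the other LC tumors and the IP+LC tumors. The ratio of the summed level of the 55 genes to that of the replication genes was 2.01, 1.76 and 1.99 in the LC tumors and 2.36, 2.34 and 2.29 in the IP+LC tumors, and the 2 groups did not overlap. This separation rests in part on Top2a, Cenpe and Cenpf. Their means were 57.2, 15.5 and 20.5 CPM in the LC tumors and 426, 162 and 171 CPM in the IP+LC tumors. The summed level of 8 macrophage markers was 4742 CPM in LC replicate 1, 1829 and 1547 CPM in LC replicates 2 and 3 and 3107, 3890 and 3754 CPM in the IP+LC tumors. Apoe, the most abundant of them, set this order, since without it the sums were 2301, 840 and 606 CPM in the LC tumors and 2235, 2819 and 2557 CPM in the IP+LC tumors. Of these 8 markers, 3 rose with all tumors and 6 without LC replicate 1, none fell in either fit and none was at 0, and their part in the levels of the 55 genes was not tested.

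**Figure D5:**
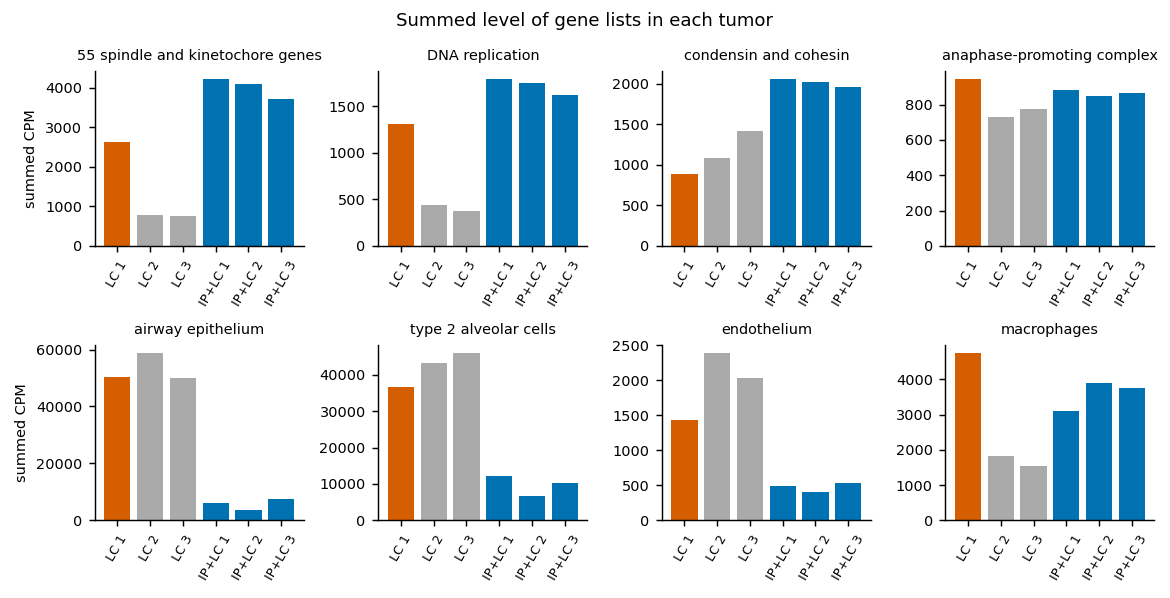
Summed level of gene lists in each tumor, in CPM, with bars starting at 0. For the 55 spindle and kinetochore genes and for DNA replication, LC replicate 1 lies between the other LC tumors and the IP+LC tumors, and its airway epithelium markers lie within the LC range of 49836 to 58702 CPM.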

How the data were processed

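Tumor RNA was barcoded and sequenced from the 3′ end by the authors, who extracted UMIs with UMI-tools 1.1.1, trimmed with Trim Galore 0.6.7, aligned to GRCm38 with HISAT2 2.2.1 and assigned reads to genes with featureCounts 2.0.1. The deposited values are counts of different UMIs per gene, not normalized, in 1 table per tumor. Which annotation release was used, and whether reads were counted by strand, is not given in the sources used here, so overlapping genes may share reads. The depth was 592733 to 1631066 UMIs, and the detection floor of 3 UMIs was 5.17 CPM for LC replicate 1 and 1.75 to 2.54 CPM elsewhere.

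Groups followed the sample titles. Genes were kept by filterByExpr (minimum count 10, minimum total 15), scaled by TMM and tested with the quasi-likelihood test of edgeR 4.0.16 in R 4.3.3, without a block, with Benjamini-Hochberg adjustment over 11240 genes and a limit of 0.1, which is the limit the study used. The standard error is the size of the log2 fold change divided by the root of the F statistic. Means are given with the SD. Alternatives used DESeq2 1.42.0, limma 3.58.1, other scalings, filters and limits, thinning to 592733 UMIs, a replicate block and leaving out each tumor. Removal of GC and length trends and sample quality weights were added after seeing the data. No pair of replicates agreed within sampling noise. On 12 simulated data sets for this comparison, with 10898 to 10971 genes tested, 185 to 196 of 200 genes changed by 2 on the log2 scale were recovered with 17 to 35 false calls, which were 8.21% to 15.3% of the calls and in most sets above the limit of 10%. The simulated tumors were drawn independently, with the same spread in both groups. These rates therefore do not cover a group in which a tumor stands apart, as LC replicate 1 does.

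The 55 genes, their roles, the other lists and the tests were chosen with earlier results of these data known. All 55 were described. Of each neighbouring list, up to 3 genes with the smallest p-value and up to 3 against the majority could be named. Transcript lengths and overlaps came from GENCODE M21 on GRCm38 (principal transcript), copies were matches of at least 81 bases and 95% identity, and promoters came from RefSeq on GRCm38.p6.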

Additional observations from a re-analysis of the deposited data

How the results depend on the processing

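With all tumors, 40 of the 54 genes rose and 1 fell. The number that rose, with the share of all genes tested that rose in the same setting, was 40 (16.4%) with DESeq2's size factors, 38 (14.3%) with upper quartile scaling, 46 (22.4%) with library size only, 49 (7.87%) without a filter on low counts, 39 (12.7%) with the DESeq2 test, 52 (19.1%) with limma voom and 32 (11.7%) with a limit of 0.05. With 2 alternatives added after seeing the data, it was 44 (19.4%) after the removal of GC and length trends and 53 (28.3%) with sample quality weights. It was 16 (19.4%) of the 22 genes that had at least 10 UMIs in every library, where fewer genes were tested, and 23 (11.9%) of 49 after thinning to 592733 UMIs. Thinning ended the calls of Nuf2, Spc24, Bub1, Bub3, Aurkb, Birc5, Kif11, Aurka, Plk1, Ect2, Ccnb1, Cdc25b, Cdc20 and Espl1, and Cenpi, Prc1 and Cdc25c could no longer be tested. Leaving out 1 tumor gave 23 to 53, the latter without LC replicate 1. The number was more than 1.5 times lower without LC replicate 2 (23), LC replicate 3 (26), IP+LC replicate 1 (25) or IP+LC replicate 2 (25). The number that fell was 0 without a filter (8.51% of all genes tested fell) and 0 to 1 when 1 tumor was left out (11.6% to 28.7%). The ratio of the summed levels was 2.90 and ranged from 2.35 to 5.29 when 1 tumor was left out, and 5.29 was the value without LC replicate 1, with the libraries scaled anew over 5 tumors (5.25 on the scaling over 6 tumors). With library size only, the median log2 fold change of all genes was 0.18 and that of the 54 genes 1.88. Without a filter, the median of all genes was -0.29.

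The replicate numbers did not pair the tumors, with correlations of 0.02, -0.11 and 0.10 between tumors of the same number. With a replicate block, 43 genes (14.2% of all genes) rose and 1 fell (16.1%). The block ended the calls of Bub3 (adjusted p = 0.102) and Cdc25b (0.157), and Cenpa, Ccna2, Ccnb2, Cdk1 and Ube2c passed the limit (0.0501, 0.0464, 0.0947, 0.0635 and 0.0378). Over 17 alternatives, no gene changed its sign. Of 881 values of single genes, 719 kept their side of the limit, 96 lost the call and 66 gained it. Only 22 of the 55 genes had at least 10 UMIs in every tumor, so counting error limits the precision of the others. The cause of the distance of LC replicate 1 from the other LC tumors was not tested.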
